A study of Mus musculus with 14 samples.

Results

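Cytochrome P450 genes of families 1 to 4 were examined in 14 arrays of mouse liver. A gene counted as a member when a probe set named it alone and its symbol began with Cyp1, Cyp2, Cyp3 or Cyp4 followed by a letter. This gave 56 genes of the 18193 that had such a probe set, from 69 probe sets and in 19 subfamilies. Each gene was followed through its probe set with the highest mean log2 intensity over the 14 arrays. Probe sets entered the tests if 3 or more arrays exceeded the pooled median of all probe sets (an intensity of 41.6, log2 5.38), and 47 of the 56 genes did. The 9 others (Cyp2b19, Cyp2c65, Cyp2d34, Cyp2j11, Cyp2j13, Cyp4f18, Cyp4f39, Cyp4f41-ps and Cyp4x1) lay under that level on every array and entered no test. Nearest to the threshold on the inner side were Cyp2s1, above it on 5 arrays, and Cyp3a16, above it on 6. A further 4 probe sets name several P450 genes and were left out of the counts.

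P450 enzymes are heme proteins of the endoplasmic reticulum (ER) membrane that oxidise lipophilic substrates with electrons passed on from NADPH. Families 1 to 3 include the main drug-metabolising enzymes of the liver, and family 4 holds fatty acid hydroxylases. Their transcription is known to respond to foreign chemicals and lipids through the receptors AhR, CAR, PXR and PPARα, and several mouse members are known to differ between males and females.

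The series set livers of lsPERK mice, its knock-out genotype, beside WT livers. Tunicamycin, which blocks N-linked glycosylation and so stresses the ER, was given at 1 mg/kg and is labelled 6 h. Controls carry the label 0.3% DMSO with no time. There were 4 lsPERK tunicamycin, 3 lsPERK control, 4 WT tunicamycin and 3 WT control arrays. PERK, encoded by Eif2ak3, is an ER-resident kinase that phosphorylates eIF2 under ER stress. The labels give neither age, sex nor strain, and they do not say how the knock-out was made or which cells lack the gene. They also leave unsaid whether each replicate was its own animal, and p-values then reflect the spread among these arrays alone, which may in part be technical. Every group held arrays of high and of low Xist signal (given below).

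The targeted gene was read first. Eif2ak3 had intensities of 316, 302, 239 and 275 in lsPERK tunicamycin livers and 157, 137 and 127 in lsPERK controls, against 1768, 2422, 1725 and 1757 in WT tunicamycin livers and 240.2, 443 and 362 in WT controls. No lsPERK array reached the WT arrays of its treatment. Hepatocyte marker genes summed to between 121006 and 130790 on every array. High signal of Xist, the RNA of the inactive X chromosome, was present on 2 lsPERK tunicamycin, 2 lsPERK control, 1 WT tunicamycin and 1 WT control array (6 in all) and absent from the other 8. The ratio of 3′ to 5′ β-actin control signal ran from 0.592 to 0.785 in lsPERK tunicamycin, 0.581 to 1.04 in lsPERK control, 0.66 to 1.21 in WT tunicamycin and 1 to 1.26 in WT control livers. In bulk liver, fewer cells of a type and less RNA per cell cannot be told apart.

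In WT liver, of the 47 tested, 14 (29.8%) were lower after tunicamycin and 1, Cyp2b10, was higher at an adjusted p under 0.05. Over all 12052 genes tested the same fit called 46.8% in either direction, 26% lower and 20.7% higher. In this fit the share of P450 genes that fell therefore lay close to the share over all genes, and the share that rose lay under it. The fit left out Xist signal, by which arrays separated without overlap for 29.8% of the P450 genes (described further on). With Xist status as a covariate 19 of the 47 were called in WT liver, beside 51.6% of all genes. Without the covariate, 1 P450 gene rose in lsPERK liver (Cyp4a31) and 1 fell (Cyp2g1). Together this is 4.26% of 47 beside 15.7% of all genes (8.43% higher and 7.29% lower). The P450 genes that passed in lsPERK liver with the replicate number as a block were all lower. They were Cyp2g1 (-2.59, adjusted p = 0.0115), Cyp1a2 (-0.52, adjusted p = 0.0395) and Cyp4f15 (-0.30, adjusted p = 0.0357). Same-numbered lsPERK arrays had the same Xist signal, so the block and Xist signal cannot be told apart there. The median log2 change of the 47 was -0.06 in lsPERK liver and -0.44 in WT liver, beside -0.02 in lsPERK and -0.13 in WT liver over all genes. Groups did not overlap for 3 P450 genes with tunicamycin higher and 4 lower in lsPERK liver (13.4% and 13.8% of all genes) and for 2 and 9 in WT liver (21.7% and 26.5%). Signs were negative for 27 of 47 in lsPERK and 37 of 47 in WT liver, beside 6273 and 6968 of 12052 genes in lsPERK and WT liver.

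The size of the WT shift depended on the scaling of the arrays. With intensities as deposited, all genes together moved by 0.43 on the log2 scale (from a median of -0.13 after quantile normalization to 0.30), and 3 P450 calls in WT liver were left: Cyp2b10 higher, Cyp2g1 and Cyp2c54 lower. Centring each array on its median gave 1 higher and 9 lower. It ended the WT calls of Cyp2d10, Cyp2d13, Cyp2j6, Cyp4f13, Cyp4f14 and Cyp4f15 and added Cyp4a14. Relative to the median of all genes, the P450 median was -0.31 after quantile normalization, -0.43 as deposited and -0.43 after median centring. The share of all genes called as deposited or after median centring is not given here.

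**Figure D1:**
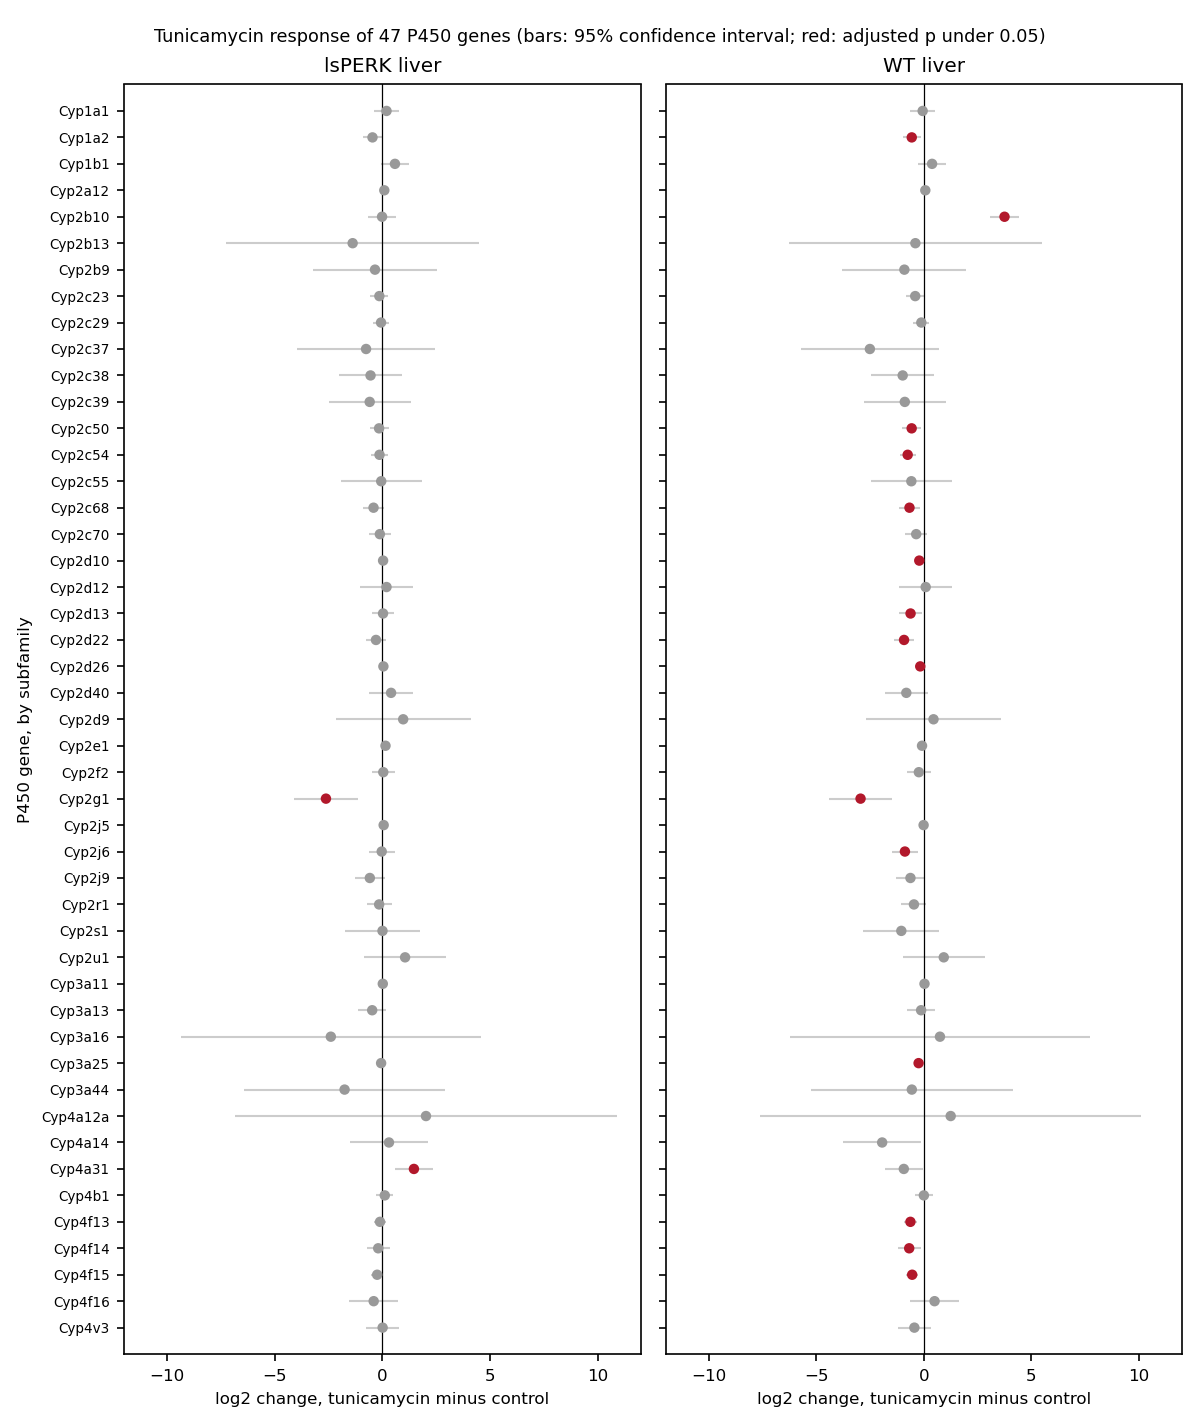
Log2 change after tunicamycin (tunicamycin minus control, horizontal axis) for the 47 kept P450 genes in lsPERK liver (left) and WT liver (right), ordered by subfamily. Points are limma estimates, bars 95% confidence intervals, and red points passed an adjusted p under 0.05: 2 genes in lsPERK and 15 in WT liver.

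Cyp2b10 gave the widest separation. It encodes a phenobarbital-inducible enzyme and is the classical target of the receptor CAR. Its intensity was 2027, 1269.8, 881 and 929 in lsPERK tunicamycin livers and 1458, 1136 and 1096 in lsPERK controls, against 11300.2, 9219, 11300.2 and 11431 in WT tunicamycin livers and 808, 1339 and 476 in WT controls. All 4 WT tunicamycin arrays stood far above the other 10, and the lsPERK groups overlapped. Cyp2b10 rose 13.4-fold in WT liver (log2 change 3.75 ± 0.31 SE, adjusted p = 5.62e-07). In lsPERK liver the log2 change was -0.02 (95% confidence interval -0.69 to 0.65, adjusted p = 0.982). The test of the difference, lsPERK response minus WT response, gave -3.77 ± 0.44 (adjusted p = 0.000108). Under tunicamycin Cyp2b10 was 8.94-fold lower in lsPERK than in WT liver (adjusted p = 2.9e-06). The other 2 probe sets of the gene gave WT changes of 4.04 and 4.20 and lsPERK changes of -0.02 and 0.16, and the last of these is not of the kind marked as shared between transcripts, as the brightest is. All of these calls passed under every alternative setting run, each array left out included.

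The other members of the subfamily followed no such pattern. Cyp2b9 and Cyp2b13, both known as female-predominant in mouse liver, changed by -0.91 ± 1.34 and -0.40 ± 2.73 in WT liver, with spreads set by arrays of high and low Xist signal (described further on). The promoter sequences of Cyp2b10 and of this pair are shown because the genes are close relatives whose values separated the arrays in different ways. RefSeq promoters (build GRCm38.p6, 250 bases before to 50 after the start, given 5′ to 3′ on the gene's strand) were at hand for 43 of the 56 genes. Those of Cyp2b9 and Cyp2b13 were identical at 298 of 300 aligned bases (99.3%), and each matched Cyp2b10 at 229 of 314 (72.9%). Capitals mark matches to the C/EBP-type motif TTGCNNAA, searched on both strands.
Cyp2b10 (chr7:25897408-25897707, + strand): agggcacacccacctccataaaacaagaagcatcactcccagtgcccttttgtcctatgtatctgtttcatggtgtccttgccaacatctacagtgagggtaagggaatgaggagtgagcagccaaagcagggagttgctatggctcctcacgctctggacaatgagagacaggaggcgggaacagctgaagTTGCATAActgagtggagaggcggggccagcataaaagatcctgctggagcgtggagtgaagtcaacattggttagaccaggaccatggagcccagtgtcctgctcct
Cyp2b9 (chr7:26173159-26173458, + strand): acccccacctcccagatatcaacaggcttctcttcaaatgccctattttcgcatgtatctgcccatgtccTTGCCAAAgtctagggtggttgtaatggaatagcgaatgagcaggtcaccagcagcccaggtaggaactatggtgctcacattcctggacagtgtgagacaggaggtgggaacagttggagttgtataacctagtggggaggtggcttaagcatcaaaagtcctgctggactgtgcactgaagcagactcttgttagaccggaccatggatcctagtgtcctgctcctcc
Cyp2b13 (chr7:26061245-26061544, + strand): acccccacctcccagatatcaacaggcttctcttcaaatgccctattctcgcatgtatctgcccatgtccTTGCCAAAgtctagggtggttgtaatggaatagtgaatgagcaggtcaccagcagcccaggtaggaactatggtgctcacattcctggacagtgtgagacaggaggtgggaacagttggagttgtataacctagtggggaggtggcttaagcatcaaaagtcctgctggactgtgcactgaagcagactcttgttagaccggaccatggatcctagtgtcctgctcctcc
The motif began at -58 from the start in Cyp2b10 and at -180 in the pair. It was present in 8 of the 43 P450 promoters (18.6%) and in 10.8% of 27025 promoters of the same length. No marked run overlapped a match to another motif searched. These matches describe letters in the window and no binding was measured.

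**Figure D2:**
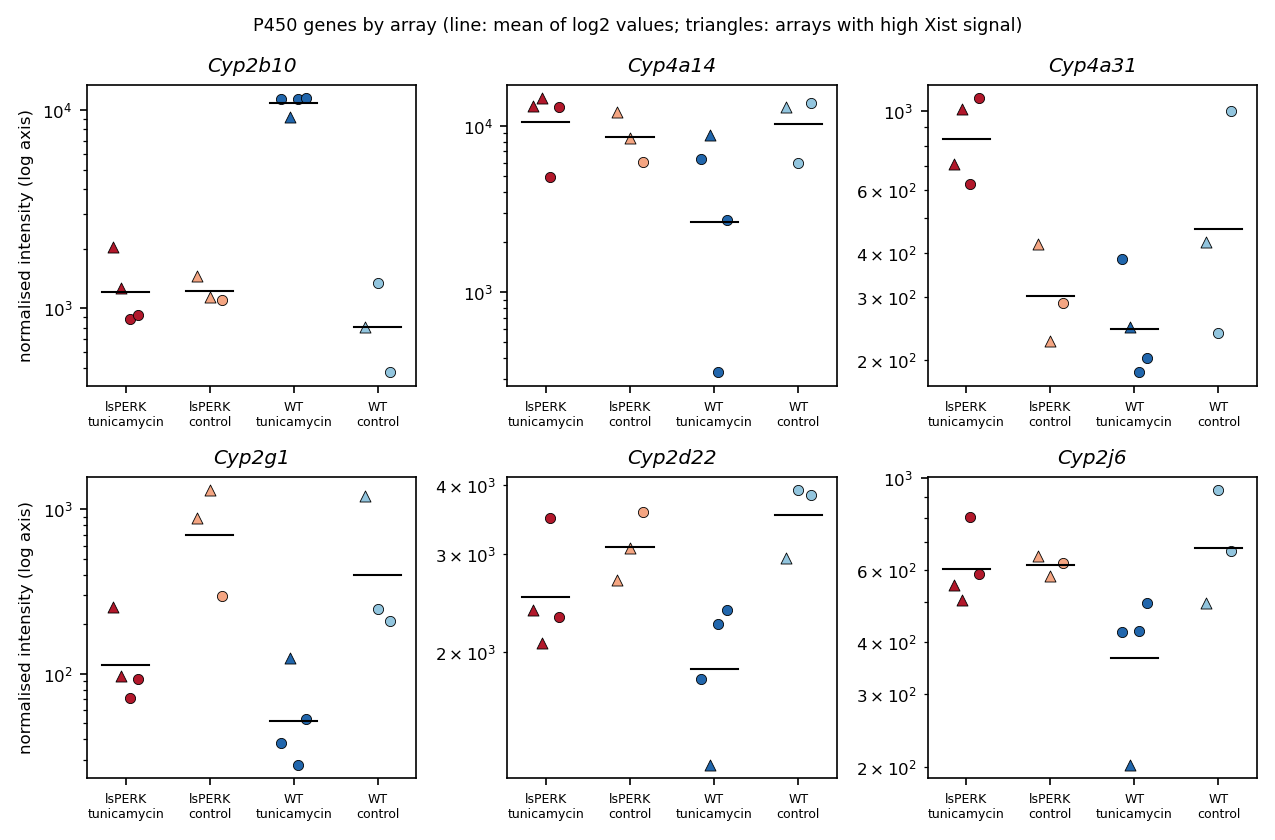
Normalised intensity (log axis) of 6 P450 genes in lsPERK tunicamycin, lsPERK control, WT tunicamycin and WT control livers. Each point is an array, triangles are arrays with high Xist signal and lines are means of log2 values. For Cyp2b10 the 4 WT tunicamycin arrays lie between 9219 and 11431, above the other 10 arrays, and for Cyp4a31 the 4 lsPERK tunicamycin arrays lie between 622 and 1087.

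Cyp4a genes encode fatty acid ω-hydroxylases and are textbook PPARα targets. Cyp4a31 moved in the opposite order to Cyp2b10. It read 710.3, 1014, 622 and 1087 in lsPERK tunicamycin livers and 424, 227 and 289 in lsPERK controls, against 385, 248, 185 and 203 in WT tunicamycin livers and 429.7, 238 and 1003 in WT controls. The lsPERK groups did not overlap, and neither did lsPERK and WT livers under tunicamycin. Cyp4a31 rose 2.76-fold in lsPERK liver (log2 change 1.46 ± 0.41, adjusted p = 0.0253). In WT liver the change was -0.93 ± 0.41 (adjusted p = 0.0743), and the difference of responses was 2.40 ± 0.57 (adjusted p = 0.0102). Under tunicamycin it was 3.41-fold higher in lsPERK than in WT liver (adjusted p = 0.00217). A second, dimmer probe set of the gene gave 1.67 in lsPERK and -1.73 in WT liver (both called) and a difference of 3.39.

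The lsPERK call for Cyp4a31 was lost without lsPERK control replicate 2 or 3 or lsPERK tunicamycin replicate 2 or 4. Adjusted p then ran from 0.0644 to 0.119. It was also lost as deposited (1.43, adjusted p = 0.0525) and with the replicate number as a block (1.45, adjusted p = 0.0527). On arrays with low Xist signal, with 1 lsPERK control array, the call was not kept either, and the lsPERK change of Cyp4a31 was 1.51. The difference of responses was lost within arrays of high Xist signal (2.24, adjusted p = 0.0755) and of low Xist signal (2.51, adjusted p = 0.123), each with fewer arrays.

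Cyp4a14, of the same subfamily, had 13113, 14613, 4915 and 13009 in lsPERK tunicamycin livers and 12140.2, 8480.3 and 6016 in lsPERK controls, against 6278, 8794, 329.7 and 2709.9 in WT tunicamycin livers and 12924, 5956 and 13706 in WT controls. A single WT tunicamycin array, replicate 3, was far below all others. Its changes of 0.30 ± 0.84 in lsPERK and -1.94 ± 0.84 in WT liver and the difference of 2.25 ± 1.19 did not pass the test (adjusted p = 0.865, 0.0737 and 0.218). A probe set that names Cyp4a31 and Cyp4a10 together was 0.92 ± 0.30 higher in lsPERK than in WT liver under tunicamycin (adjusted p = 0.0305), with a WT response of -0.82 (adjusted p = 0.0543). Its lsPERK response of 0.26 (adjusted p = 0.68) and its difference of responses of 1.08 (adjusted p = 0.133) did not pass. Cyp4a12a, the remaining member, separated by Xist signal.

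Cyp2g1 fell in livers of either genotype. The gene is best known for its expression in the olfactory mucosa. Its intensity was 256, 96.7, 71.7 and 93.6 in lsPERK tunicamycin livers and 887, 1301 and 299 in lsPERK controls, against 37.9, 125, 28.1 and 52.9 in WT tunicamycin livers and 1210.5, 248 and 209 in WT controls. Neither pair of groups overlapped. It fell 6.17-fold in lsPERK liver (log2 -2.63 ± 0.69, adjusted p = 0.0191) and 7.71-fold in WT liver (-2.95 ± 0.69, adjusted p = 0.00291). The difference of 0.32 had a 95% confidence interval of -1.77 to 2.41. The WT call held under all settings. The lsPERK call was lost without lsPERK control replicate 1 or 2 or lsPERK tunicamycin replicate 3 (adjusted p from 0.0505 to 0.102).

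The Cyp2c genes, which hydroxylate drugs, steroids and arachidonic acid, had negative signs in either genotype for all 10 tested members, with medians of -0.15 in lsPERK and -0.63 in WT liver. Of the 10, none passed in lsPERK and 3 in WT liver (Cyp2c54, Cyp2c68 and Cyp2c50). Over all genes 7.29% were lower in lsPERK and 26% in WT liver, and 6273 and 6968 of 12052 had a negative sign. Cyp2c38 and Cyp2c39 were brighter on every array with high than on any with low Xist signal. Cyp2c37 and Cyp2c50 were brightest on 3 WT arrays of either treatment (described further on). For these genes the signs also depend on which arrays each group held.

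Cyp2c54 read 9325, 7608, 9886 and 9941 in lsPERK tunicamycin livers and 9049.5, 9373 and 11934 in lsPERK controls, against 6559, 5238, 9483 and 6289 in WT tunicamycin livers and 9700.2, 13059.7 and 11551 in WT controls. The WT groups did not overlap. It fell 1.69-fold in WT liver (log2 -0.75 ± 0.17, adjusted p = 0.00276), a call held under all settings, and changed by -0.14 ± 0.17 in lsPERK liver (adjusted p = 0.675). The difference of responses, 0.62 ± 0.25, did not pass (adjusted p = 0.0982).

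Cyp2c68 had 5917, 10350.2, 7487 and 6036 in WT tunicamycin livers and 14643, 10684 and 9844 in WT controls, overlapping by 1 array (log2 -0.67 ± 0.24, adjusted p = 0.0316). The call was lost without WT control replicate 1 or WT tunicamycin replicate 1 or 4 (adjusted p from 0.0812 to 0.144). Cyp2c50 changed by -0.57 ± 0.21 (adjusted p = 0.0364). That call was lost without WT control replicate 1 or 2 or WT tunicamycin replicate 1, 2 or 4 (adjusted p from 0.0743 to 0.142), with the replicate block (-0.51, adjusted p = 0.0866), as deposited (-0.41, adjusted p = 0.186) and on arrays with low Xist signal (-0.41, adjusted p = 0.252). It passed in 19 of 32 alternative settings.

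Among the Cyp2d genes, none of 7 passed in lsPERK liver and 4 fell in WT liver, where 26% of all genes were lower. As deposited none of the 4 was called, with changes of -0.47 for Cyp2d22, -0.09 for Cyp2d10, -0.06 for Cyp2d13 and -0.05 for Cyp2d26. Cyp2d22, the relative of the human debrisoquine hydroxylase CYP2D6, had 2377, 2079, 3480.4 and 2317 in lsPERK tunicamycin livers and 2699.7, 3076 and 3566 in lsPERK controls, against 1793, 1256, 2249.8 and 2381 in WT tunicamycin livers and 2952, 3904 and 3831 in WT controls. Every WT control array lay above every WT tunicamycin array. Cyp2d22 fell 1.90-fold in WT liver (log2 -0.92 ± 0.22, adjusted p = 0.00306), and its second probe set gave -1.06. As deposited its adjusted p was 0.11. In lsPERK liver the change was -0.30 ± 0.22 (adjusted p = 0.407), and the difference of 0.62 did not pass (adjusted p = 0.182).

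The other called Cyp2d genes moved less. Cyp2d13 changed by -0.62 ± 0.24 in WT liver (adjusted p = 0.0495) and lost the call without any of 11 of the 14 arrays. Cyp2d10 and Cyp2d26, both among the 8 brightest P450 probe sets, fell by 0.22 ± 0.08 and 0.17 ± 0.06 on the log2 scale (adjusted p = 0.0431 and 0.0347). Leaving out WT tunicamycin replicate 1 ended both calls (adjusted p = 0.0625 and 0.084), as did replicate 2 (0.109 and 0.0656). WT control replicate 3 ended both as well (0.0946 and 0.0926), WT control replicate 2 that of Cyp2d10 (0.151) and WT control replicate 1 that of Cyp2d26 (0.17). Without lsPERK control replicate 2, lsPERK tunicamycin replicate 1 or WT tunicamycin replicate 4, Cyp2d10 had an adjusted p of 0.0507, 0.0521 and 0.0542.

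Cyp2j6, of a subfamily that makes epoxides of arachidonic acid, had 551, 505, 807 and 584 in lsPERK tunicamycin livers and 649, 579 and 623 in lsPERK controls, against 423, 202, 426 and 498 in WT tunicamycin livers and 499, 934 and 666 in WT controls. The WT groups touched without overlapping. It fell 1.84-fold in WT liver (log2 -0.88 ± 0.28, adjusted p = 0.0189), and its second probe set gave -0.96. In lsPERK liver the change was -0.03 ± 0.28. The WT call was lost as deposited (-0.33, adjusted p = 0.432), after median centring (-0.62, adjusted p = 0.124), with only the 2 groups fitted (adjusted p = 0.0585) and without WT control replicate 2 (-0.65, adjusted p = 0.0985).

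Cyp1a2, which oxidises caffeine and aromatic amines and is a known AhR target, had 8151, 6337, 11751 and 9442 in lsPERK tunicamycin livers and 10842, 12036 and 13222 in lsPERK controls, against 7366, 6433, 10873 and 9780.3 in WT tunicamycin livers and 11199, 13411 and 12906 in WT controls. The WT groups did not overlap, and the lsPERK groups did. Changes were close in the 2 genotypes: -0.46 ± 0.20 in lsPERK (adjusted p = 0.138) and -0.57 ± 0.20 in WT liver (adjusted p = 0.0297), with a difference of 0.10 (95% confidence interval -0.50 to 0.70). The WT call was lost without WT control replicate 2 or 3 or WT tunicamycin replicate 1 or 2 (adjusted p from 0.0752 to 0.0895). With the replicate number as a block, the lsPERK change of -0.52 passed (adjusted p = 0.0395). Cyp1a1 and Cyp1b1 lay near the threshold, between 40.8 and 89.6 and between 23.7 and 80.3 over the 14 arrays, and were not called.

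The Cyp4f genes, hydroxylases of leukotrienes and long-chain fatty acids, fell in WT liver for 3 of the 4 tested, where 26% of all genes were lower. Cyp4f13 had 829, 912, 939.8 and 925 in lsPERK tunicamycin livers and 960.2, 956 and 1005 in lsPERK controls, against 689, 487, 706 and 768 in WT tunicamycin livers and 954, 989 and 1088 in WT controls. The WT tunicamycin arrays were below all other 10 arrays. Cyp4f13 fell 1.54-fold in WT liver (log2 -0.63 ± 0.13, adjusted p = 0.00157) and held when any array was left out. In lsPERK liver the change was -0.11 ± 0.13 (adjusted p = 0.645), and the difference of 0.51 ± 0.19 missed the threshold (adjusted p = 0.0737).

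Cyp4f15 had 2909, 2662, 3346 and 3511 in lsPERK tunicamycin livers and 3480.4, 3323 and 4240.4 in lsPERK controls, against 2387, 2257, 2999 and 2922 in WT tunicamycin livers and 3422, 3909 and 4192 in WT controls. The WT groups did not overlap (log2 -0.55 ± 0.13, adjusted p = 0.00398), and this call too held when any array was left out. Cyp4f14 fell by 0.68 ± 0.25 on the log2 scale (adjusted p = 0.034). Its lowest value, 1611 on WT tunicamycin replicate 2, compares with 3374 to 4178 on the other 3 arrays of that group, and the call was lost without WT control replicate 2 or 3 (adjusted p = 0.0746 and 0.119). With intensities as deposited none of the 3 was called (adjusted p from 0.294 to 0.846), and Cyp4f13 changed by -0.06. Median centring ended the 3 calls as well (adjusted p from 0.0672 to 0.0884).

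The brightest P450 probe sets hardly moved. Cyp3a11, the main CYP3A enzyme of mouse liver and a PXR target, read between 18654 and 20645 on all 14 arrays. Its change was 0.02 ± 0.04 in lsPERK and 0.03 ± 0.04 in WT liver (adjusted p = 0.858 and 0.633). Cyp2e1, which oxidises ethanol, had 19743, 20645, 19464 and 19950.3 in lsPERK tunicamycin livers and 17887, 16714 and 19743 in lsPERK controls, against 16897, 17829.6, 18077 and 18850.1 in WT tunicamycin livers and 19209.9, 18401 and 19464 in WT controls. It was called between the genotypes under tunicamycin (0.16 ± 0.05, adjusted p = 0.0366), the only comparison in which it passed. Cyp2c29 and Cyp2a12, next in brightness with Cyp2d10, changed by -0.07 and 0.09 in lsPERK and by -0.12 and 0.06 in WT liver without passing. Among the 8 brightest, Cyp3a25 fell most in WT liver (-0.25 ± 0.08, adjusted p = 0.017). That call was lost as deposited (-0.12, adjusted p = 0.465), with the β-actin ratio as a covariate (adjusted p = 0.0568), without the variance trend (0.0541), on arrays with high Xist signal (0.146) and without WT control replicate 2 (0.0576). In all, 22 kept members had a deposited intensity in the 5-digit range on at least 1 array, and whether such probe sets were saturated was not tested. Levels of different probe sets are not comparable as transcript amounts.

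Lists drawn by regulator are read against the shares over all genes. These were 8.43% higher and 7.29% lower in lsPERK and 20.7% higher and 26% lower in WT liver. Of 13 tested genes known to respond to CAR or PXR, none passed in lsPERK liver, and 1 rose (Cyp2b10) and 3 fell in WT liver (Cyp2c54, Cyp2c50 and Cyp3a25). The median change of the 13 was -0.16 in lsPERK and -0.57 in WT liver. Of 9 tested P450 genes known to be pericentral, none passed in lsPERK and 3 fell in WT liver, with medians of -0.14 in lsPERK and -0.57 in WT liver.

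Between the genotypes under tunicamycin, 8 of the 47 were higher in lsPERK liver (17%) and 1, Cyp2b10, was lower, beside 18.5% higher and 16.9% lower, 35.4% in all, over all genes. Groups did not overlap for 7 with lsPERK higher and 2 with lsPERK lower (18.7% and 17.7% of all genes). The median was 0.24, beside 0.05 over all genes. Cyp4a31, Cyp2j6, Cyp4b1, Cyp4f13, Cyp2c54, Cyp2d26, Cyp3a25 and Cyp2e1 made up the 8, of which Cyp4a31 was called under every setting run. Of the 8, the other 7 lost the call as deposited and after median centring, where Cyp4a14 was added as higher. Cyp2j5 was not called by its brightest probe set (0.08). Its dimmer probe set was 0.69 higher in lsPERK liver (adjusted p = 0.0013 among all kept probe sets). The dimmer one also gave a WT response of -0.39 (adjusted p = 0.0434), beside -0.01 for the brightest.

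Cyp4b1 and Cyp2e1 were called in neither tunicamycin response. Cyp4b1 read 762, 902, 706 and 878 in lsPERK tunicamycin livers and 863, 840.1 and 581 in lsPERK controls, against 536, 597, 488 and 554 in WT tunicamycin livers and 754, 426 and 497 in WT controls. Under tunicamycin the genotypes did not overlap (0.58 ± 0.17, adjusted p = 0.0194). The responses were 0.11 ± 0.19 in lsPERK and -0.00 ± 0.19 in WT liver, and the control comparison gave 0.47 ± 0.20 (adjusted p = 0.991, unadjusted p = 0.0368). The call was lost without lsPERK tunicamycin replicate 2 or 4 or WT tunicamycin replicate 3 (adjusted p from 0.0527 to 0.0558), as deposited (0.33, adjusted p = 0.398), after median centring (0.42, adjusted p = 0.0756) and on arrays with high Xist signal (0.47, adjusted p = 0.16).

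Cyp2d26 had 13786, 14712, 13204 and 13786 in lsPERK and 11245, 11461, 12232 and 12059 in WT tunicamycin livers, with no overlap (0.24 ± 0.06, adjusted p = 0.00471) and no loss of the call when an array was left out. It was lost as deposited (adjusted p = 0.0666), after median centring (0.0555), and on arrays with low (0.0793) or high Xist signal (0.0524). Cyp4f13 kept its call when an array was left out and lost it under both scalings (0.46 ± 0.12, adjusted p = 0.00985). The remaining calls were close to the threshold. Cyp2j6 (0.71, adjusted p = 0.0461) and Cyp2c54 (0.44, adjusted p = 0.0472) were each lost in 18 of 32 alternative settings, with an adjusted p of up to 0.132 and 0.134 when an array was left out, at lsPERK tunicamycin replicate 3 and WT tunicamycin replicate 2. Cyp2e1 was lost without any of 6 arrays, all given tunicamycin, with an adjusted p of up to 0.107. Cyp3a25 (0.24, adjusted p = 0.0171) was lost without lsPERK tunicamycin replicate 1 or 3 (adjusted p = 0.0549 and 0.0573).

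Without tunicamycin no P450 gene was called between the genotypes by limma, and none was called among all 12052 genes (0%). At an unadjusted p under 0.05 the same fit had 508 genes, 1 of them a P450 gene (Cyp4b1). The median of the 47 was -0.05. For 3 of the 47 the arrays did not overlap with lsPERK above WT, and for none with lsPERK below, beside 2.79% and 4.59% of all genes.

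The test of the difference between the 2 responses called 2 P450 genes, Cyp2b10 and Cyp4a31, in opposite directions. They were 4.26% of 47, beside 19.9% of all genes (10.2% higher and 9.72% lower). The median difference was 0.26 (0.08 over all genes), and 40 of 47 signs were positive, beside 6747 of 12052. As deposited, the same 2 were called and the median was 0.04, beside -0.41 over all genes.

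For 14 of the 47 (29.8%), arrays with high and low Xist signal did not overlap: 7 were brighter with high Xist signal (14.9%, beside 1.07% of all genes) and 7 with low (14.9%, beside 0.797%). The labels give no sex, and none is assigned here. Cyp3a16 passed the filter only through the 6 arrays with high and Cyp4a12a only through the 8 with low Xist signal, so these 2 had to separate.

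Cyp3a16, Cyp2b13 and Cyp3a44 were close to or under the filter threshold on the 8 arrays with low Xist signal. Cyp3a16 ran from 780.2 to 2367 with high Xist signal (median 1665) and from 0.513 to 15.8 with low. Cyp2b13 ran from 6219.5 to 8675 with high and from 23.4 to 64.3 with low Xist signal. Cyp3a44 ran from 1463 to 4622 with high and from 29 to 60.8 with low. These 3 genes are known as female-specific or female-predominant in adult mouse liver.

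Cyp2b9 (7529 to 8768 with high Xist signal, 414 to 1319 with low) and Cyp2c39 (8023 to 11444 with high, 696 to 4934 with low) followed the same order on a smaller scale. The reverse held for Cyp4a12a, the male-predominant arachidonic acid hydroxylase, with 1.36 to 8.06 on arrays of high and 6693 to 10593 on arrays of low Xist signal. Cyp2d9, a male-predominant steroid 16α-hydroxylase, had 453 to 1463 with high and 13596 to 14849 with low. Cyp2u1 had 36.9 to 109 with high and 136 to 531 with low. Each of these genes had group means that mixed the 2 kinds of array, and none was called in a comparison over all arrays. On arrays with high Xist signal alone, 1 WT tunicamycin array faced 1 WT control array, and 2 lsPERK tunicamycin arrays faced 2 lsPERK controls. There Cyp3a16 changed after tunicamycin by -1.53 in lsPERK and -0.83 in WT liver (log2). Cyp3a44 changed by -1.22 in lsPERK liver. The WT side of this subset had no replicates. On arrays with low Xist signal alone, Cyp2b9 changed by -0.93 in WT liver (3 tunicamycin and 2 control arrays). That fit held 1 lsPERK control array.

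**Figure D3:**
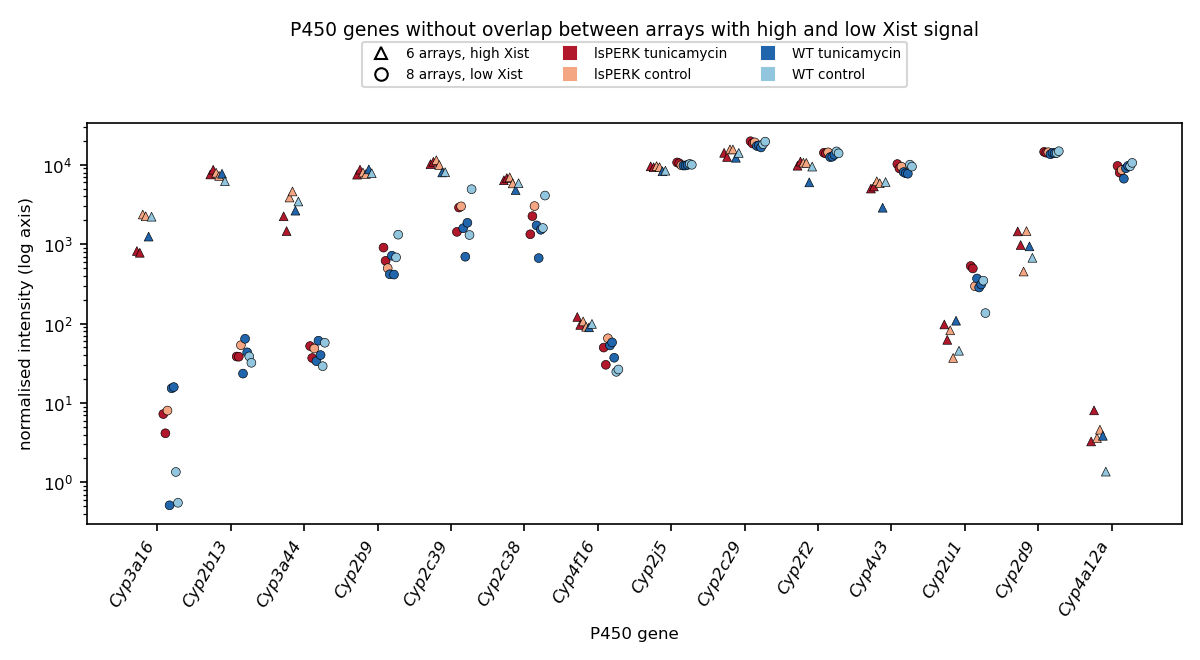
Normalised intensity (log axis) of the 14 P450 genes whose arrays with high Xist signal (6, triangles) and low Xist signal (8, circles) do not overlap, coloured by group. From left to right the genes go from brighter with high Xist signal (Cyp3a16, 780.2 to 2367 against 0.513 to 15.8) to brighter with low (Cyp4a12a, 1.36 to 8.06 against 6693 to 10593).

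The Cyp3a promoters are shown because Cyp3a16 and Cyp3a44 separated by Xist signal while Cyp3a11 read nearly the same on all arrays. Cyp3a16 and Cyp3a44 were identical at 284 of 304 aligned bases (93.4%), Cyp3a16 and Cyp3a11 at 237 of 314 (75.5%), and Cyp3a44 and Cyp3a11 at 227 of 316 (71.8%). Capitals mark matches, on either strand, to the HNF4-type motif CAAAGTCCA and the FOXA-type motif TGTTTAC.
Cyp3a16 (chr5:145469674-145469973, - strand): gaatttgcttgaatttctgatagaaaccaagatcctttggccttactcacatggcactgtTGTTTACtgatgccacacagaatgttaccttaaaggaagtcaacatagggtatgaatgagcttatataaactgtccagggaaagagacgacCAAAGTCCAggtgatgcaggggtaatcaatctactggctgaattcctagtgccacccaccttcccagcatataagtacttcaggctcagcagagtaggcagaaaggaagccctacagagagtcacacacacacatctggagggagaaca
Cyp3a44 (chr5:145805825-145806124, - strand): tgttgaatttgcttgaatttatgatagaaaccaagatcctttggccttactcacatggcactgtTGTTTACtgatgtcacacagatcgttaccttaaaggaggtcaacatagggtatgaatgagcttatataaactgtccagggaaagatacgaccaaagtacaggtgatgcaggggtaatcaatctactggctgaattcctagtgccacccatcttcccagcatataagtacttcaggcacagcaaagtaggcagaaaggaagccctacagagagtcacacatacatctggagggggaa
Cyp3a11 (chr5:145879805-145880104, - strand): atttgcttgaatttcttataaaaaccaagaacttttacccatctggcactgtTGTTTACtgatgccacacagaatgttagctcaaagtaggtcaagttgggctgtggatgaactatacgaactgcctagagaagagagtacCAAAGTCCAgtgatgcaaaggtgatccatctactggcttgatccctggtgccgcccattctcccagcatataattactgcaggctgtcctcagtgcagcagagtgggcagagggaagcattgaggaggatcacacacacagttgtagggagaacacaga
The FOXA-type letters occurred in all 3, beginning at -190, -186 and -198 from the start in the order printed, and in 6 of 43 P450 promoters (14%) beside 3.55% of 27025. The HNF4-type letters occurred in Cyp3a16 and Cyp3a11, and in 5 of 43 P450 promoters (11.6%) beside 0.477% of all. No marked run overlapped a match to another motif searched. The other motifs were TTCNNNGAA (STAT5 type, 3 of 43, 6.98% beside 8.47%), TGATGNAA (CARE type, 1 of 43, 2.33% beside 4.06%) and TATAAA (17 of 43, 39.5% beside 14.2%).

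With Xist status as a covariate the counts of P450 genes called were 5 in lsPERK liver (beside 19.8% of all genes), 19 in WT liver (51.6%), 17 between the genotypes under tunicamycin (38.9%), none under control (0.0083%) and 6 in the difference of responses (24.1%). All calls of the fit without the covariate were kept. In lsPERK liver Cyp1a2 (-0.53, adjusted p = 0.013), Cyp2c68 (-0.31, adjusted p = 0.0325) and Cyp4f15 (-0.29, adjusted p = 0.0263) were added as lower. In the difference of responses Cyp2d13 (0.60, adjusted p = 0.0121), Cyp2c54 (0.59, adjusted p = 0.0228), Cyp2d10 (0.23, adjusted p = 0.0283) and Cyp4f13 (0.50, adjusted p = 0.0367) were added as higher. Leaving out WT tunicamycin replicate 2 as well gave 5 in lsPERK liver, 17 in WT liver, 13 between the genotypes under tunicamycin and 6 in the difference. Of the calls without the covariate, those of Cyp2c50 and Cyp2d26 in WT liver and of Cyp2e1 and Cyp4b1 between the genotypes were then lost. The share of all genes called without that array is not given here.

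Cyp2c37 was far brighter on 3 WT arrays of either treatment than on the rest. It had 424, 377, 139 and 128 in lsPERK tunicamycin livers and 604, 522 and 191 in lsPERK controls, against 107, 389, 6977 and 211 in WT tunicamycin livers and 13676, 10913 and 153 in WT controls. The high values were those of WT tunicamycin replicate 3 and WT control replicates 1 and 2, of which WT control replicate 1 had high and the other 2 low Xist signal. Among lsPERK livers the 4 arrays with high Xist signal (377 to 604) lay above the 3 with low (128 to 191). Its WT change of -2.51 ± 1.49 was not called (adjusted p = 0.186).

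The same 3 arrays had the highest readings of Cyp2c50, a neighbour of Cyp2c37 in the RefSeq gene order with Cyp2c54 between them. They were 13411, 15006 and 15532, against 6917 to 11349 on the other 11. Cyp2c54 itself did not follow, with 9483 on WT tunicamycin replicate 3 and 9700.2 and 13059.7 on WT control replicates 1 and 2. Cyp2c55, first in that order, had 363 on WT tunicamycin replicate 3 and 555 on WT control replicate 2, but 64.2 on WT control replicate 1, beside 13.9 to 95.7 on the others. Whether the probes of Cyp2c37 and Cyp2c50 share targets was not tested.

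**Figure D4:**
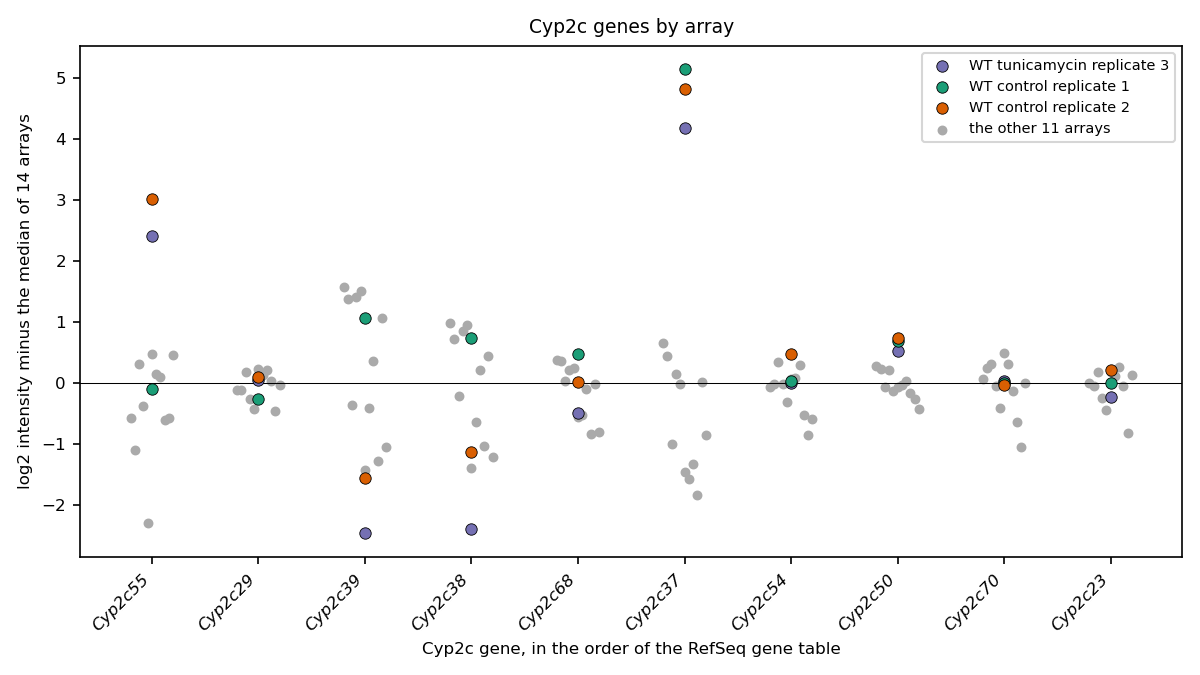
Log2 intensity of the 10 kept Cyp2c genes minus each gene's median over 14 arrays, in the order of the RefSeq gene table. Coloured points are WT tunicamycin replicate 3 and WT control replicates 1 and 2, grey points the other 11 arrays. The 3 coloured arrays stand apart for Cyp2c37 (6977, 13676 and 10913) and lead Cyp2c50.

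Genes that serve or control the P450 enzymes are read against the same shares over all genes, 8.43% higher and 7.29% lower in lsPERK and 20.7% higher and 26% lower in WT liver. Among electron transfer partners, none of 5 passed in lsPERK and 3 fell in WT liver: cytochrome b5 type B (Cyb5b, -0.75 ± 0.12, adjusted p = 0.000156), the b5 reductase Cyb5r3 (-0.74 ± 0.23, adjusted p = 0.018) and Pgrmc2 (-0.39 ± 0.10, adjusted p = 0.00656). The direction of Pgrmc2 depended on the scaling, with 0.16 as deposited. Cyb5a, which passes electrons to P450 enzymes, changed by 0.02 in lsPERK and 0.00 in WT liver. The reductase gene Por was not analysed here.

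Of 9 tested genes of heme synthesis, 2 fell in lsPERK liver, and 1 rose and 5 fell in WT liver. Alas1, the rate-limiting enzyme of heme synthesis, had 8225, 5711, 5851 and 6647 in lsPERK tunicamycin livers and 12942, 14769 and 8509.7 in lsPERK controls, against 8509.7, 5032, 7758 and 8116 in WT tunicamycin livers and 12609.7, 8575 and 11349 in WT controls. It fell in lsPERK (-0.85 ± 0.22, adjusted p = 0.0165) and WT liver (-0.57 ± 0.22, adjusted p = 0.0431). The porphyrin transporter Abcb6 fell by 0.54 in lsPERK and by 1.63 in WT liver on the log2 scale. Ferrochelatase (Fech), which inserts the iron, changed by 0.07 in lsPERK liver and fell by 0.53 in WT liver (difference 0.60, adjusted p = 0.00318).

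Heme breakdown split. Heme oxygenase 1 (Hmox1) had 295, 155, 168 and 166 in lsPERK tunicamycin livers and 329, 378 and 456 in lsPERK controls, against 1755, 612, 653 and 920 in WT tunicamycin livers and 459.6, 184 and 332 in WT controls. WT tunicamycin arrays were above all others and lsPERK tunicamycin arrays below their controls. Hmox1 rose in WT liver (1.56 ± 0.37, adjusted p = 0.00313). In lsPERK liver the change was -1.02 ± 0.37 (adjusted p = 0.0781), and the difference was -2.59 (adjusted p = 0.00377). Hmox2 rose (0.96) and the biliverdin reductases Blvra and Blvrb fell (-1.82 and -0.60) in WT liver.

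Of 27 tested transcription factors and cofactors that control P450 genes, lsPERK liver had 1 higher and 8 lower, and WT liver 3 higher and 14 lower. Nr1i3, the gene of the receptor CAR, had 2406, 2964, 3149 and 3262 in lsPERK tunicamycin livers and 3580.1, 3284 and 3207 in lsPERK controls, against 1433, 1485, 1446 and 1626 in WT tunicamycin livers and 4102, 3136 and 4574 in WT controls. It fell in WT liver (-1.38 ± 0.13, adjusted p = 1.53e-06), where Cyp2b10 rose, and changed by -0.20 ± 0.13 in lsPERK liver (difference 1.18, adjusted p = 0.000724).

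Ppara had 2563, 2322, 3959 and 2845 in lsPERK tunicamycin livers and 3723, 4587 and 3467 in lsPERK controls, against 933, 865, 1341 and 1707 in WT tunicamycin livers and 3607, 4467 and 5872 in WT controls. It fell in WT liver (-1.97 ± 0.24, adjusted p = 1.73e-05), with -0.45 ± 0.24 in lsPERK liver and a difference of 1.52 (adjusted p = 0.00737). Among 19 PPARα-induced genes outside the P450 families, lsPERK liver had 1 higher and 1 lower and WT liver 2 higher and 9 lower.

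Nr0b2, the corepressor SHP, moved in opposite directions: 1.65 ± 0.39 in lsPERK and -3.33 ± 0.39 in WT liver, with a difference of 4.98 (adjusted p = 7.12e-05). Ppargc1a, a coactivator of PPARα and CAR, changed by 0.32 ± 0.36 in lsPERK liver and fell in WT liver (-2.28 ± 0.36), with a difference of 2.60 (adjusted p = 0.00343). Rxra, the shared partner of CAR, PXR and PPARα, fell in lsPERK (-0.57, adjusted p = 0.0333) and WT liver (-0.92, adjusted p = 0.000441). Cebpa, a hepatocyte transcription factor, fell by 1.23 and 1.01 on the log2 scale in lsPERK and WT liver. Ahr changed by -0.72 in lsPERK liver (adjusted p = 0.0934) and fell by 0.83 on the log2 scale in WT liver (adjusted p = 0.0218). Nr1i2, the gene of PXR, and Hnf4a were not called in either response. Nr1i2 changed by -0.09 in lsPERK and 0.23 in WT liver, and Hnf4a by 0.18 in lsPERK and 0.30 in WT liver.

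**Figure D5:**
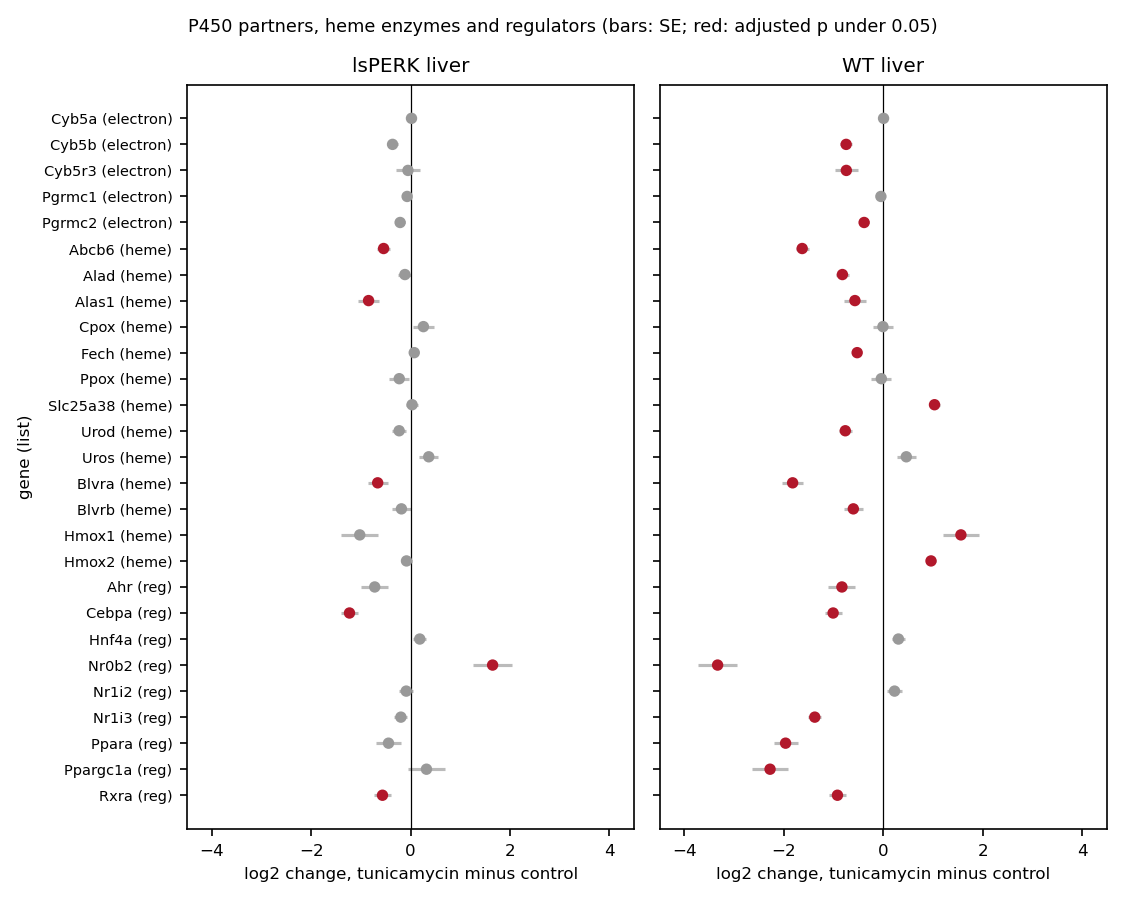
Log2 change after tunicamycin (tunicamycin minus control) in lsPERK liver (left) and WT liver (right) for electron transfer partners, heme enzymes and P450 regulators. Points are limma estimates, bars standard errors, red points passed an adjusted p under 0.05. Nr0b2 lies at 1.65 in lsPERK and -3.33 in WT liver, and Nr1i3 at -0.20 and -1.38.

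Genes induced through the same receptors, but outside the P450 families, are read against the same shares (7.29% lower in lsPERK and 26% lower in WT liver). Of 12 tested CAR- and PXR-induced genes, none passed in lsPERK liver, and 1 rose and 2 fell in WT liver: the glutathione transferase Gstm3 rose (1.15, adjusted p = 0.0159), and the transporters Abcc3 (-1.46, adjusted p = 1.17e-05) and Abcb1a (-1.19, adjusted p = 0.0495) fell. Of 4 tested AhR-induced genes, 1 fell in lsPERK liver (Nqo1, -0.91), and in WT liver Tiparp and Nfe2l2 rose (1.12 and 0.40) and Nqo1 fell (-1.02). Pericentral genes outside the P450 families fell for 1 of 12 in lsPERK and 8 of 12 in WT liver, and periportal genes for 1 of 10 in lsPERK and 4 of 10 in WT liver.

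Of 10 tested genes of other P450 families, 1 fell in lsPERK and 3 in WT liver, beside 7.29% and 26% of all genes. Cyp7a1, which catalyses the first step from cholesterol to bile acids, fell in lsPERK (-3.79 ± 0.52, adjusted p = 0.000221) and in WT liver (-2.37 ± 0.52, adjusted p = 0.00179). Cyp8b1, which sets the share of cholic acid, fell in WT liver (-1.95 ± 0.34, adjusted p = 0.000373), as did the cholesterol 24-hydroxylase gene Cyp46a1 (-1.21 ± 0.41, adjusted p = 0.0247).

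Cell type markers are read against the shares over all genes as well. These were 8.43% higher and 7.29% lower in lsPERK and 20.7% higher and 26% lower in WT liver. In WT liver after tunicamycin, 1 of 6 Kupffer cell, 2 of 6 endothelial and 1 of 5 stellate cell markers fell. Summed over its list, the Kupffer cell marker signal ran from 4159 to 12386 in WT tunicamycin and 7228 to 19371 in WT control livers. Endothelial signal ran from 3500 to 5515 in WT tunicamycin and from 3995 to 6327 in WT control livers. Of the other lists, hepatocyte markers had 1 higher and 1 lower of 8, adipocyte markers 1 higher of 2 and intestinal markers 1 lower of 2. In lsPERK liver 1 cholangiocyte marker was higher and 1 hepatocyte marker lower. The part of these cells in the P450 changes was not tested. With the β-actin ratio as a covariate, 9 P450 genes were called in WT liver, and the share of all genes called in that fit is not given here.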

How the data were processed

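Mouse liver RNA was measured on 14 one-colour Affymetrix arrays of 45101 probe sets. The authors deposited linear signal intensities made with MAS5 in GCOS, per the submitters' processing notes; the genome build is not given in the sources used here. Deposited intensities had array medians of 34.6 to 53.5. They were put on the log2 scale and quantile-normalised here, which forces the same distribution on every array. By the platform annotation, 34945 probe sets name a single gene, 932 name several and 9160 none, and 64 controls were left out.

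Each of 12052 genes was fitted with limma 3.58.1 (R 4.3.3) on 4 group means over all 14 arrays, with an intensity trend in the variance, and 5 contrasts were tested two-sided with Benjamini-Hochberg adjustment at 0.05. Errors given as ± are standard errors, and intervals are 95% confidence intervals. Fit and contrasts were tested on simulated data. Arrays carry no counts, so their number limits the precision. Xist signal was called high above a deposited intensity of 1000. Promoters were aligned with Biopython 1.88 (Python 3.11.15) and figures drawn with matplotlib 3.10.9.

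Members, gene lists and motifs were chosen with earlier results of these data known. Genes named were, per contrast, up to 8 called members with the largest change, the 8 brightest members, those nearest the filter, up to 8 with the largest separation by Xist signal, those with an array far from its group, up to 4 per list by p, and fixed receptor and heme genes. Others, such as Cyp1a1, Cyp1b1, Cyp1a2, Cyp2c37, Cyp2c50, Cyp2c55, Cyp2d13, Cyp4f15, Cebpa, Nr0b2, Ppargc1a and the promoters shown, were named after their values were seen.

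Replicate numbers come from the labels. Deviations of same-numbered arrays from their group means correlated at 0.28, 0.24 and 0.35 in the lsPERK response. This passes the rule for pairing (every pair over 0.1). In the WT response they correlated at -0.26, -0.37 and 0.16. Between genotypes they did so at -0.14, 0.42, 0.24 and 0.20 under tunicamycin and 0.31, -0.19 and 0.33 under control. All positive values came from pairs with the same Xist signal, and all negative values from pairs that differed in it. Every lsPERK pair had the same Xist signal, so pairing and Xist signal cannot be told apart there. Alternatives were the scaling, the filter on low values, the choice of probe set, the variance model, the arrays in the fit, Xist signal and the β-actin ratio as covariates, the replicate block and each array left out.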

Additional observations from a re-analysis of the deposited data

Results flagged for a closer look

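In 9 of 94 combinations of a P450 gene and a group of 4 arrays, 1 array lay far from the other 3, by the gap to its nearest neighbour as a share of the group's range. Genes read on the same array are not independent, so this count is set against no chance rate. WT tunicamycin replicate 2, the only array of its group with high Xist signal, accounted for 8 of the 9. All of these genes but Cyp2b10 had no overlap between arrays with high and low Xist signal. For them that array had to be the extreme of its group. The share on WT tunicamycin replicate 2 was 0.985 for Cyp2d9, 0.955 for Cyp4v3, 0.953 for Cyp4a12a, 0.946 for Cyp2b10, 0.916 for Cyp2f2, 0.894 for Cyp2j5, 0.864 for Cyp3a44 and 0.833 for Cyp2c29. For Cyp2b10 that array read 9219, against 11300.2 to 11431 on the others of the group, all far above the controls. The remaining combination was Cyp4a14 on lsPERK tunicamycin replicate 3, with a share of 0.893 and an intensity of 4915.

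The response to tunicamycin differed between lsPERK and WT liver for Cyp2b10 (-3.77, lsPERK minus WT, log2 scale) and for Cyp4a31 (2.40), each by the test of the difference itself.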

How the results depend on the processing

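The count of P450 genes called in WT liver, 15, became 3 with intensities as deposited and 9 without the variance trend, with the β-actin ratio as a covariate or with only the groups compared. It ran from 9 to 15 when an array was left out, with 9 without WT control replicate 2. In lsPERK liver the count of 2 became 1 as deposited, 5 with Xist signal as a covariate (also without WT tunicamycin replicate 2, an alternative chosen after seeing the data), 1 on arrays with low and 6 on arrays with high Xist signal. It ran from 0 to 2 when an array was left out, with 0 without lsPERK control replicate 2 and 1 without lsPERK control replicate 1 or lsPERK tunicamycin replicate 2 or 4. Between genotypes under tunicamycin, 9 became 2 as deposited, 3 after median centring, 5 without the trend, 17 with the Xist covariate and 14 on high-Xist arrays, and ran from 5 to 9 when an array was left out, with 5 without lsPERK tunicamycin replicate 1 or 4. Under control it stayed at 0 when any array was left out, and was 1 (Cyp2c37) on high-Xist arrays. For the difference of responses, 2 became 4 with a filter at the 75th percentile, 6 with the Xist covariate (also without WT tunicamycin replicate 2), 1 on low-Xist and 4 on high-Xist arrays, and ran from 2 to 3 when an array was left out. On high-Xist arrays, with 1 array left in each WT group, Cyp3a16 had the opposite sign in the WT response (-0.83) and between genotypes under tunicamycin (-0.64). With the replicate number as a block the counts were 3 in lsPERK liver, 15 in WT liver, 13 between genotypes under tunicamycin, 0 under control and 2 for the difference. The causes of these shifts were not tested, except that subsets of arrays hold fewer samples. Apart from the Xist covariate (above), the share of all genes called under each setting is not given here. These counts therefore do not tell a shift of P450 genes from a shift of all calls. Counts on high-Xist arrays come from a fit with 1 array in each WT group. Those on low-Xist arrays come from a fit with 1 lsPERK control array.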

Other observations

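The 4 probe sets that name several P450 genes entered no count. The one shared by Cyp3a41a and Cyp3a41b changed by -1.16 ± 2.35 in lsPERK and -0.66 ± 2.35 in WT liver, and that of Cyp2a4 and Cyp2a5, coumarin and steroid hydroxylases, by -0.08 ± 0.14 in lsPERK and -0.17 ± 0.14 in WT liver. The probe set of Cyp4f16 and Cyp4f37 changed by -0.03 ± 0.40 in lsPERK and -0.43 ± 0.40 in WT liver. None of these 3 passed the test in any comparison. The Cyp3a41a and Cyp3a41b probe set separated by Xist signal, with 16858 to 19950 on arrays of high and 112 to 253 on arrays of low. That of Cyp4f16 and Cyp4f37 did so as well, with 79.7 to 141 against 34.3 to 64.4.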
